A study of Homo sapiens with 4 samples.

Results

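The genes described here make the membrane, the heme and the iron supply of the red blood cell. They were chosen by name as 51 genes, with the globin genes and the transcription factor genes left out, out of 20037 protein-coding genes. By role they were 11 blood group and surface genes, 9 genes of the membrane skeleton and its anchors, 10 heme synthesis genes, 3 heme breakdown genes, 8 iron genes and 10 genes of transport, signalling and maturation. A peak was assigned to a gene if its summit, the position of highest coverage, lay in the gene or within 100 kb of it with no other protein-coding gene nearer. All positions are on hg38.

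The peaks came from chromatin immunoprecipitation sequencing (ChIP-seq) of human cells that the labels call HSC and describe as stem cells and progenitors. The control group was 1 ChIP library with its own input, and the treated group was 1 ChIP library with its own input from cells given transforming growth factor β1 (TGF-β1) at 20 ng/mL for 2 h. A protocol shared by the labels of all 4 libraries also names GDF11 at 100 ng/mL, and the sources used here give neither whether any of these cells received it nor the antibody. Peak lists hold no expression values, so the labelled cell type was not checked against markers. With 1 ChIP library per group no test between conditions was possible, and p-values between the lists are not given. After duplicates were removed, 36280696 tags were left for control ChIP and 45984282 for TGF-β1 ChIP, and the lists held 5307 and 15993 peaks, a ratio of 3.01. The inputs differed the other way, with 66537905 tags left for control and 46802425 for TGF-β1. Tag length was 60 bp for control and 43 bp for TGF-β1. These differences go with the condition, so their part in the peak counts cannot be told apart from that of the treatment.

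A red cell gets its shape from a spectrin network under the membrane that is tied through ankyrin and protein 4.1 to band 3, the glycophorins and the Rh complex. Its heme is made in steps that begin and end in the mitochondrion, from iron that enters bound to transferrin and is released in the endosome. Red cell precursors switch on most of these genes together, largely through GATA and KLF factors that bind at and near their start sites.

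Few of these genes had a peak in either list. In the control list 1 of 51 did, or 1.96% (exact binomial 95% interval 0.0496% to 10.4%), against 9.28% of all protein-coding genes. In the TGF-β1 list 7 of 51 did, or 13.7% (5.70% to 26.3%), against 25.3% of all protein-coding genes. Both shares were below their background, and both intervals just include it. The intervals cover counting error only. A single gene, CPOX, had a peak in both lists, where 5.35% of all protein-coding genes did. The other 6 had one in the TGF-β1 list alone, against 20.0% of all protein-coding genes, and none had one in the control list alone, against 3.94%.

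No difference between the roles was resolved at these numbers of genes. In the TGF-β1 list a peak was assigned to 3 of 8 iron genes, TFRC, SLC11A2 and SLC40A1, to 2 of 11 blood group and surface genes, GYPE and RHAG, to 1 of 9 membrane skeleton genes, SPTB, and to 1 of 10 heme synthesis genes, CPOX. None of the 3 heme breakdown genes and none of the 10 transport, signalling and maturation genes had one in either list. The iron genes had the highest share, 37.5%, but its interval of 8.52% to 75.5% holds the 25.3% of all genes. The membrane skeleton share was 11.1% (0.281% to 48.2%), the blood group and surface share 18.2% (2.28% to 51.8%) and the heme synthesis share 10% (0.253% to 44.5%), and these 4 intervals overlap one another. In the control list the heme synthesis share was also 10%, from CPOX, and the other roles were at 0. With 0 of 11 genes the exact interval reaches 28.5%, so lists of this size cannot show a role to be free of peaks.

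**Figure D1:**
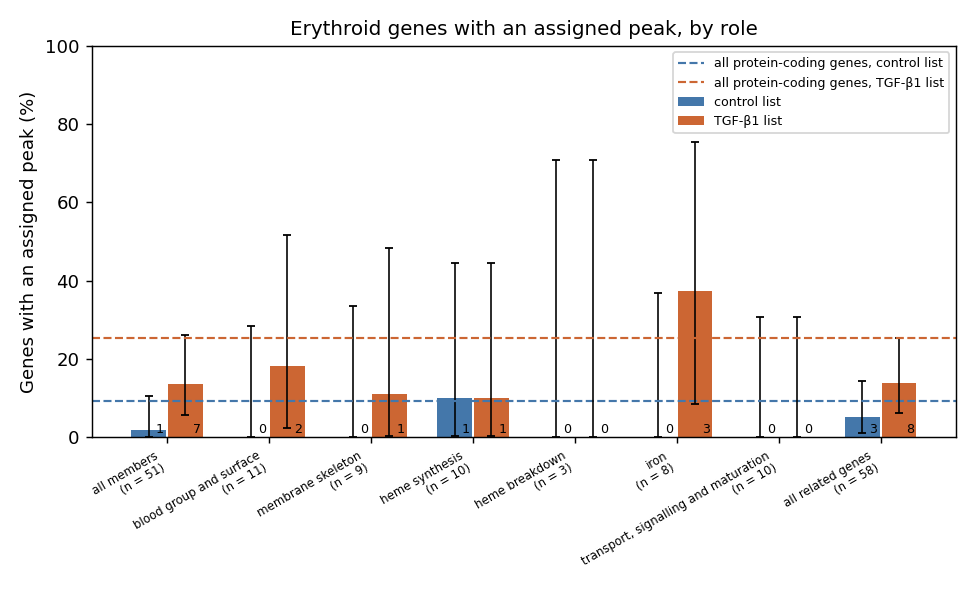
Share of genes with an assigned peak in percent, for the 51 genes, for each role and for 58 related genes, with exact binomial 95% intervals as error bars and the number of genes with a peak printed at the foot of each bar. Dashed lines mark all protein-coding genes, at 9.28% (control, blue) and 25.3% (TGF-β1, orange). The bars for the 51 genes lie below their lines, and the iron bar of the TGF-β1 list, at 3 of 8, is the tallest.

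None of the assigned summits lay at a start site. RefSeq start-site windows matched 36 of the 51 genes, with 51 start sites in all. Neither list had a summit within 10 kb of any of them, against 1.84% (control) and 6.12% (TGF-β1) of 15843 protein-coding genes with such windows. For 0 of 51 genes the exact interval would reach 6.98%, and for 36 genes it is wider. A count of 0 is therefore not resolved from these shares. The nearest control summit was 12.03 kb from the start of UROD and the nearest TGF-β1 summit 10.3 kb from the start of ICAM4. The promoters are therefore shown here as the places where no summit was found, with 1 gene for each role that had a peak: the blood group gene RHAG (chr6:49636840-49637089), the skeleton gene SPTB (chr14:64879908-64880157), the heme gene CPOX (chr3:98593612-98593861) and the iron gene TFRC (chr3:196082091-196082340). Each is the 250 bases before the outermost RefSeq start (GRCh38.p14), all 4 on the minus strand, and runs 5′ to 3′ towards the start. Capitals mark GATAA, the core letters read by GATA factors, and CACCC, the core letters read by KLF factors, on either strand, so that TTATC and GGGTG are marked too.
RHAG: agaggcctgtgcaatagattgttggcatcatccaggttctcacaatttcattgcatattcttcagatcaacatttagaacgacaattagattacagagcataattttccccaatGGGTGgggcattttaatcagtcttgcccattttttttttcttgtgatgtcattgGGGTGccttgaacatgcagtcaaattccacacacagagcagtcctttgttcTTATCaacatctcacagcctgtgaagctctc
SPTB: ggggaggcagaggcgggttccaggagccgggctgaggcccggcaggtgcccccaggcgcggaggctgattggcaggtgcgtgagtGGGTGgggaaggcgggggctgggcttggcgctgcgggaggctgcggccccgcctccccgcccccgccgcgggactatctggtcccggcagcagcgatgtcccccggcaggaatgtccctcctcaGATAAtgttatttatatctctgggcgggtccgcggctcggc
CPOX: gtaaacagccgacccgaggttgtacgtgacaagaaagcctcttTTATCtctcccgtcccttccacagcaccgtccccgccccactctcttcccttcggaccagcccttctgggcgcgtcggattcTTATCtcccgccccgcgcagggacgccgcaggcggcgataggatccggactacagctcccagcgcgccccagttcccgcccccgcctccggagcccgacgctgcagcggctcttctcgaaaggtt
TFRC: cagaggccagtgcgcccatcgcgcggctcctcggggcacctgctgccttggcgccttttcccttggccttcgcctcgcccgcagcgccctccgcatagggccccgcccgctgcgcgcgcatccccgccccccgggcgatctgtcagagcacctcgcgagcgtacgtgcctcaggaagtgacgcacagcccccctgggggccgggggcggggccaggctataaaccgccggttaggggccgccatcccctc

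RHAG held 1 GATAA match and 2 CACCC matches in its 250 bases, SPTB held 1 of each, CPOX held 2 GATAA matches, and TFRC held neither. No printed match shares a base with another. The GC content of these windows ranged from 40.8% (RHAG) through 65.6% (CPOX) and 72.0% (SPTB) to 74.4% (TFRC). Over the whole windows, which also take in 50 bases after the start, GATAA or its reverse stood in 16 of 36 genes (44.4%), among them ALAS2, EPOR, KEL, EPB42 and PKLR, against 18.3% of the 15843 genes. CACCC stood in 29 of 36 (80.6%) against 62.9%. The other letters searched on both strands were CAGAC, the letters of the SMAD-binding element, in 18 of 36 genes against 44.3%, CANNTG, the E-box, at 58.3% against 64.6%, and GGCGC at 66.7% against 62.6%. Searches for different letters can share bases in these windows. A match is a description of the letters and not a binding site, and the ChIP data placed no summit in any of these windows. Empty windows are not particular to these genes. Of the 15843 genes, only 0.0505% (control) and 0.133% (TGF-β1) had a summit within 1 kb of a start.

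GYPE encodes glycophorin E, a member of the glycophorin A and B family, and had the peak of highest fold among these genes. The TGF-β1 peak at chr4:143808787-143808958 had fold enrichment 4.46 at pileup 21 tags and −log10 q 5.74, where fold enrichment is pileup plus 1 over local background plus 1, and all are the authors' values for the peak. It ranked 2429 of 15993 by fold. Its summit lay 62.0 kb past the 3′ end of the gene (chr4:143870864-143905559), the most distant of the assigned summits, and the next protein-coding gene, FREM3, was 108 kb from it. A non-coding RNA gene, LOC105377458, lay closer, at 8.91 kb. The nearest control summit was 553 kb away. GYPE and GYPB are near-identical in sequence, so reads in their bodies can be placed in either. This summit lay outside both bodies, and whether reads there have a single place in the genome was not tested. GYPB, which carries the S and s antigens, had its nearest TGF-β1 summit at 154 kb.

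RHAG encodes the Rh-associated glycoprotein, without which the Rh proteins do not reach the membrane. Its TGF-β1 peak at chr6:49590959-49591129 had fold enrichment 4.06 at pileup 19 and −log10 q 4.50, and ranked 4100 by fold. The summit lay 14.1 kb past the 3′ end of the gene (chr6:49605175-49636839), with the pseudogene CYP2AC1P slightly closer at 10.8 kb, and the nearest control summit was 168 kb away. The partners of this protein had no peak. RHCE, which encodes the C and E antigens, was 80.3 kb from a TGF-β1 summit that lay nearer to MACO1 (fold 4.07), and RHD, which encodes the D antigen, was 180 kb from the same summit. RHD and RHCE are also near-identical, and neither held a summit.

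The other blood group and surface genes had no assigned peak. ICAM4, the Landsteiner-Wiener antigen gene, was 8.71 kb from a TGF-β1 summit of fold 3.07, but that summit lay 0.451 kb from its neighbour ICAM5. For KEL, the Kell antigen gene, the nearest TGF-β1 summit was just past the limit at 102 kb and was nearest to OR6V1. For GYPC, which anchors protein 4.1, it was 213 kb away, for XK, the partner of Kell, 254 kb, for ACKR1, the Duffy antigen gene, 342 kb, and for BSG, the basigin gene, 388 kb. In the control list the nearest summits to these 11 genes lay at 182 kb (RHAG) to 8536 kb (BSG), so all were outside the limit there.

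SPTB encodes β-spectrin, the subunit of the spectrin network that binds ankyrin. It was the one membrane skeleton gene with a peak, in the TGF-β1 list at chr14:64751191-64751375, with fold enrichment 2.48 at pileup 21 and −log10 q 1.88. That fold ranked 14265 of 15993, in the weakest part of the list. The summit lay inside the gene (chr14:64746283-64879907), 4.98 kb before its 3′ end and 129 kb from its outermost start, and PLEKHG3 was the next gene, at 1.010 kb. Exons and introns were not analysed here. The nearest control summit was 587 kb from it.

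The partners of spectrin had none. EPB42, which encodes protein 4.2, was 33.6 kb from a TGF-β1 summit of fold 3.84 and −log10 q 7.25, and that summit lay inside TMEM62. ANK1, the ankyrin gene, was 129 kb from a TGF-β1 and 230 kb from a control summit. EPB41, the protein 4.1 gene, was nearer to a control summit (109 kb) than to a TGF-β1 summit (176 kb). So was SLC4A1, which encodes the anion exchanger band 3, at 423 kb and 457 kb. TMOD1, whose product caps the short actin filaments, was 130 kb from a TGF-β1 summit, and the adducin genes ADD1 and ADD2 and the dematin gene DMTN were 322 kb, 307 kb and 319 kb away. None of these 9 genes had a control summit within 100 kb.

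CPOX encodes coproporphyrinogen oxidase, an enzyme of the late heme pathway in the mitochondrion, and was the one gene with a peak in both lists. The TGF-β1 peak at chr3:98605820-98605958 had fold enrichment 3.05 at pileup 20 and −log10 q 2.84, and the control peak at chr3:98622628-98622775 had fold enrichment 3.56 at pileup 22 and −log10 q 4.11. Both lay upstream of the gene (chr3:98570488-98593611), at 12.3 kb and 29.1 kb from its start, and their summits were 16.8 kb apart, so the lists did not share a site. The pseudogene RPL19P7 lay 2.03 kb from the control summit, closer than CPOX. The control peak ranked 1533 of 5307 by fold in its list and the TGF-β1 peak 10755 of 15993 in its own.

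The other 9 heme synthesis genes had no assigned peak. The rate-setting gene of the red cell, ALAS2 (aminolevulinate synthase), was 805 kb from a TGF-β1 and 852 kb from a control summit, and its TGF-β1 distance was the longest among all 51 genes. UROD, the uroporphyrinogen decarboxylase gene, was 12.03 kb from a control summit of fold 4.29 and −log10 q 5.70 that lay nearer to HECTD3, and 310 kb from a TGF-β1 summit. SLC25A38, the mitochondrial glycine carrier gene, was likewise nearer to a control summit (34.8 kb, nearest to CCR8, fold 2.78) than to a TGF-β1 summit (342 kb). ABCB10, a mitochondrial transporter gene, had 3 TGF-β1 summits within 100 kb, at 17.8 kb inside NUP133 (fold 3.43), at 22.7 kb nearest to TAF5L (3.21) and at 46.4 kb inside TAF5L (5.57). The last of these had a higher fold than any peak assigned to the 51 genes.

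PPOX, which oxidises the product of CPOX, was 64.5 kb from a TGF-β1 summit inside PFDN2 (fold 3.80), and FECH, ferrochelatase, which inserts the iron, was 103 kb from one nearest to ATP8B1. The distances were 154 kb for ALAD, 250 kb for UROS and 254 kb for SLC25A37, the mitoferrin gene that brings iron into the mitochondrion. Among the heme breakdown genes, HMOX1, the inducible heme oxygenase gene, was 93.0 kb from a TGF-β1 summit nearer to MCM5 (fold 2.67). BLVRB, the biliverdin reductase B gene, was 332 kb away and HMOX2, the constitutive heme oxygenase gene, 673 kb. Control summits were at least 638 kb from all 3.

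TFRC encodes the transferrin receptor, by which red cell precursors take up iron. Its TGF-β1 peak at chr3:195994921-195995115 had fold enrichment 3.80 at pileup 17 and −log10 q 3.62, and ranked 5946 by fold. The summit lay 54.2 kb past the 3′ end of the gene (chr3:196049284-196082090), with the pseudogene LOC100131360 at 1.43 kb and the next protein-coding gene, TNK2, at 86.5 kb. The nearest control summit was 381 kb from it.

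SLC11A2 encodes DMT1, the transporter that moves iron out of the endosome. Its TGF-β1 peak at chr12:50956165-50956376 had fold enrichment 3.69 at pileup 18 and −log10 q 3.65. The summit lay inside the gene (chr12:50952263-51028886), 3.94 kb before its 3′ end, and also inside HIGD1C, which overlaps it, so it counts for both. SLC40A1 encodes ferroportin, the iron exporter, and had the weakest of the assigned peaks. That TGF-β1 peak, at chr2:189525770-189525925, had fold enrichment 2.34 at pileup 22 and −log10 q 1.67, ranked 14939 of 15993, and lay 34.7 kb past the 3′ end of the gene (chr2:189560590-189580786). SLC40A1 also had a control summit within 100 kb, at 75.1 kb (fold 3.10), but that one lay 5.61 kb from ASDURF and ASNSD1.

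The other 5 iron genes had no assigned peak. ERFE, which encodes the hormone erythroferrone, was 55.3 kb from a TGF-β1 summit nearer to HES6 (fold 2.47). STEAP3, the endosomal ferrireductase gene, was 121 kb from one, FTH1 and FTL, which encode the ferritin subunits, 150 kb and 240 kb, and TFR2, the second transferrin receptor gene, 264 kb.

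Among the genes of transport, signalling and maturation, several lay near a summit that belonged to a neighbour. CA2, a carbonic anhydrase gene, was 13.0 kb from a TGF-β1 summit of fold 5.16 and −log10 q 6.73, and CA1, the other carbonic anhydrase gene of the red cell, was 72.9 kb from the same summit. It lay between them, 1.92 kb from CA3. SLC2A1, the glucose transporter gene, was 42.0 kb from a TGF-β1 summit nearer to ZNF691 (fold 3.48), TRIM58, a ubiquitin ligase gene of late maturation, 52.0 kb from one inside OR2AJ1 (4.22), and AQP1, the water channel gene, 96.2 kb from one nearer to ADCYAP1R1 (3.55). For AHSP, the α-globin chaperone gene, PKLR, the pyruvate kinase gene, BNIP3L, which acts in mitochondrial clearance, and XPO7, a nuclear exportin gene, the nearest TGF-β1 summits were 113 kb, 151 kb, 159 kb and 189 kb away. EPOR, the erythropoietin receptor gene, was farthest at 516 kb. The control summits nearest to these 10 genes lay between 127 kb (CA2) and 3352 kb (AQP1).

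**Figure D2:**
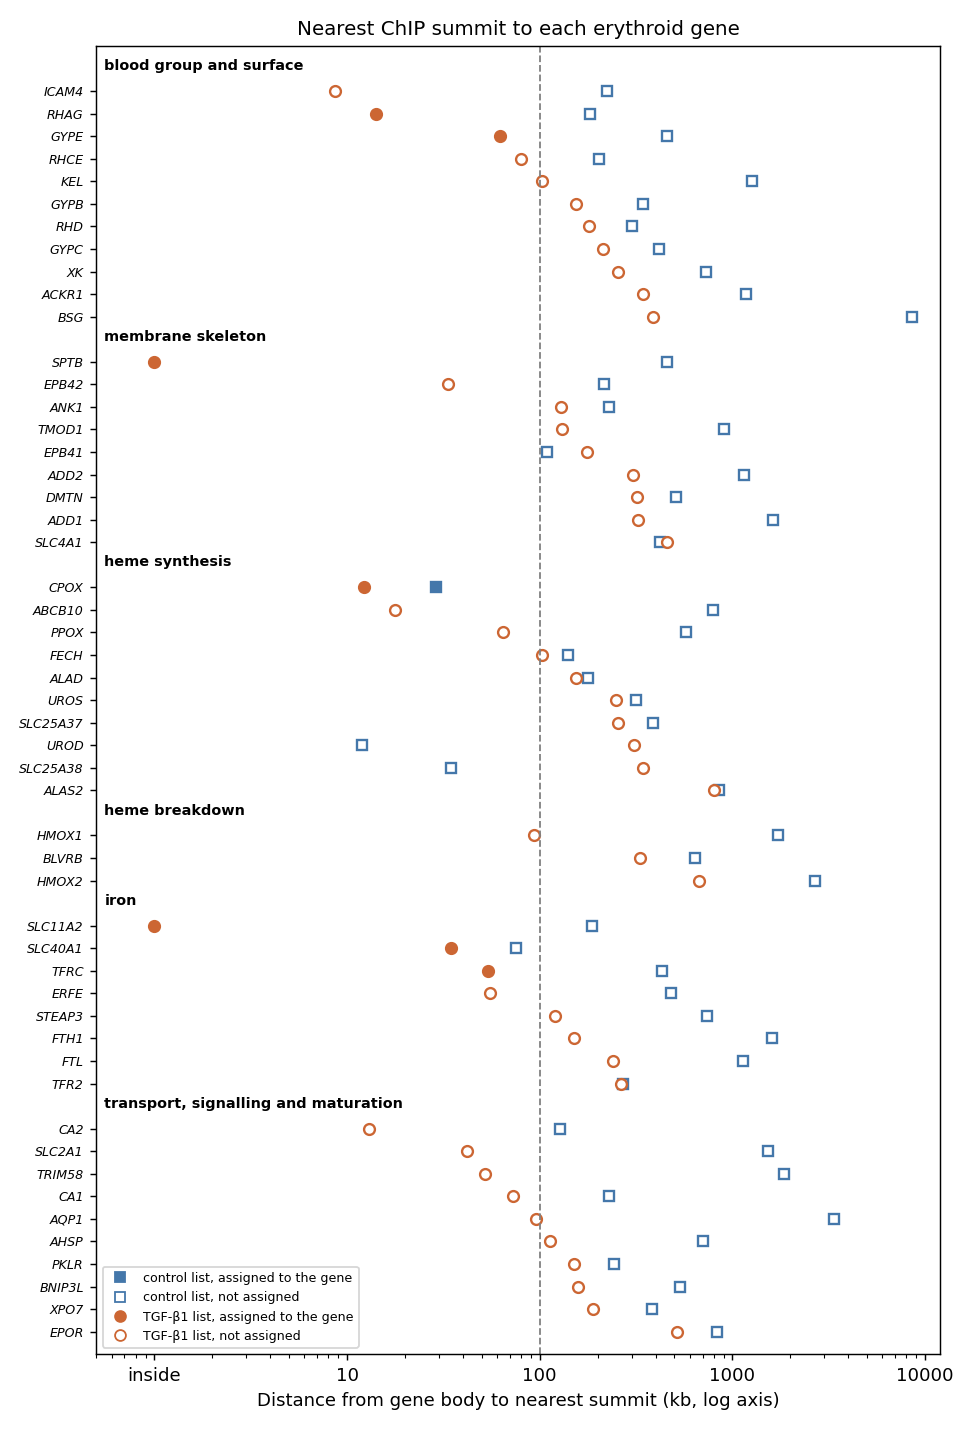
Distance in kb (log axis, with summits inside a gene placed at "inside") from the body of each of the 51 genes to its nearest summit in the control list (blue squares) and in the TGF-β1 list (orange circles), by role. Filled marks are summits assigned to the gene and the dashed line is the 100 kb limit. The TGF-β1 mark is the nearer one for 47 genes and the control mark for 4, SLC4A1, EPB41, UROD and SLC25A38. Of all protein-coding genes, 77.3% had the nearer summit in the TGF-β1 list, which is 3.01 times as long as the control list.

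When nearness to other genes was set aside, 19 of the 51 genes (37.3%) had a TGF-β1 summit within 100 kb, against 53.8% of all protein-coding genes, and 4 (7.84%) a control summit, against 20.7%. The median distance to the nearest summit was 150 kb in the TGF-β1 list and 457 kb in the control list for these genes, and 86.4 kb and 361 kb for all protein-coding genes. The TGF-β1 summit was the nearer one for 47 of the 51 genes (92.2%), against 77.3% of all protein-coding genes, and the difference between these shares was not tested. The most distant assigned summit was that of GYPE at 62.0 kb, well inside the limit. Just outside the limit were the nearest TGF-β1 summits to KEL and FECH, at 102 kb and 103 kb.

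The median gene body was 28.5 kb for the 51 genes and 24.1 kb for all protein-coding genes. The stretch of genome in which a summit would be assigned to a gene had a median of 63.6 kb against 56.6 kb. Over 3.98 Mb of such stretches, the 51 genes had 1.76 TGF-β1 peaks per Mb (exact Poisson 95% interval 0.707 to 3.62) against 3.92 for all protein-coding genes, and 0.251 control peaks per Mb (0.00636 to 1.40) against 1.12. The TGF-β1 interval ended below the value for all genes and the control interval included it. These intervals treat peaks as independent. Over all protein-coding genes, 8324 TGF-β1 assignments fell on 5078 genes, so the intervals can be too narrow. The interval for the share of the 51 genes with a TGF-β1 peak, given above, included its background. In the wider surroundings, all positions within 500 kb of any of the 51 genes, there were 3.30 TGF-β1 summits per Mb (163 in 49.4 Mb) and 0.729 control summits per Mb (36), against 3.95 and 1.19 around all protein-coding genes. Whether the lower density of the surroundings plays a part in the counts for the genes was not tested.

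**Figure D3:**
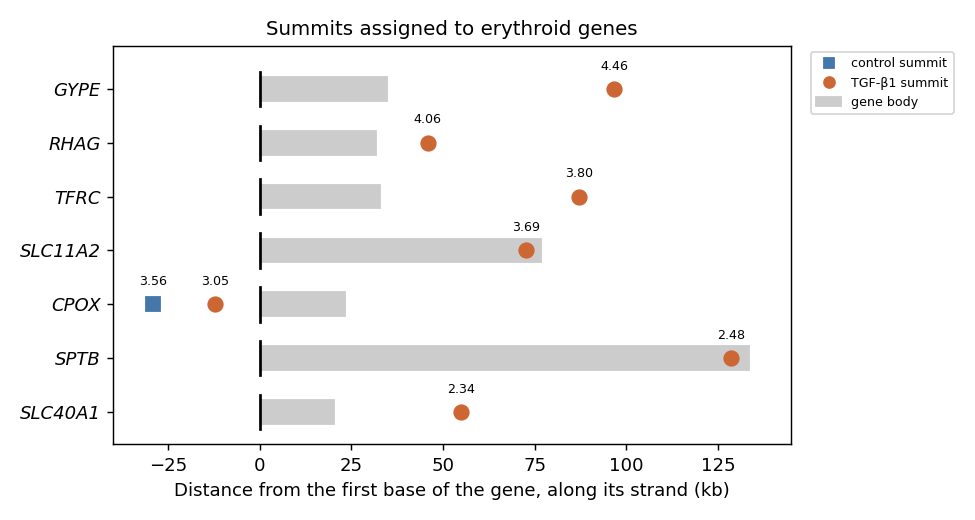
Position of the 8 assigned summits along the strand of their gene, in kb from the first base of the gene (black line), with the gene body in grey, the authors' fold enrichment printed above each mark, control in blue and TGF-β1 in orange. Of the 7 TGF-β1 summits, 6 lie in the last part of the gene or past its 3′ end and the CPOX summit lies upstream.

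The 7 TGF-β1 summits lay on the 3′ side of their genes in all cases but CPOX. Past the 3′ end lay 4 (GYPE, RHAG, TFRC and SLC40A1), inside the gene 2 (SPTB and SLC11A2, both within 5 kb of the 3′ end) and upstream 1. Of the 6758 assignments of TGF-β1 summits to protein-coding genes with a known strand, 17.8% were downstream, 61.6% inside and 20.6% upstream. In the control list, where the single summit was upstream, the shares were 22.97%, 56.3% and 20.7%. Summits inside a gene near its 3′ end were not counted over all genes, so the 3′ side as a whole has no background here. Only 2 of the 51 genes (3.92%) held a TGF-β1 summit inside, against 15.8% of all protein-coding genes, and none held a control summit, against 5.50%.

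In fold, the 7 TGF-β1 peaks lay on both sides of the middle of their list. Their folds ran from 2.34 to 4.46 with a median of 3.69, beside 3.46 for the whole list, and 4 of the 7 were above it. Pileups ran from 17 to 22 (list median 19). By −log10 q most were below the TGF-β1 list median of 3.78. GYPE (5.74) and RHAG (4.50) were above it. SLC11A2 (3.65), TFRC (3.62), CPOX (2.84), SPTB (1.88) and SLC40A1 (1.67) were below it. The control peak of CPOX, at 4.11, was also below the median of its list, 4.67. Local background at the summits was at most 3.82 times the genome-wide value, and none of the 8 lay over high local background, set at over 5 times that value, or in a 1 Mb bin with 20 or more peaks. None of the 8 overlapped a peak of the other list, and of all peaks 14.4% of the control list and 4.81% of the TGF-β1 list did, so a count of 0 among 1 and 7 peaks is close to what the lists show as a whole.

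The share of these genes was below the background under each other rule for peaks and for distance that was tried. These rules draw on the same peak lists, so their results are not independent of one another. With −log10 q of 5 or more, 0 control and 1 TGF-β1 gene were left, against 2.14% and 6.55% of all protein-coding genes. The exact interval reaches 6.98% for 0 of 51 genes and 10.4% for 1 of 51, so neither count is resolved from its background. With the TGF-β1 list shortened to the 5307 peaks of highest fold, 2 genes were left (3.92% against 11.8%), GYPE and RHAG. Summits in the gene or within 10 kb of it gave 0 and 2 genes (against 6.65% and 18.8%), and a limit of 500 kb gave 2 and 8 genes (3.92% and 15.7% against 10.9% and 27.6%). Where any RefSeq gene, coding or not, could take a summit, 0 and 4 genes had one, against 7.04% and 19.2%. Without peaks over high local background the counts of 1 and 7 were unchanged (8.92% and 25.2%), as they were without bins dense in peaks (9.24% and 25.3%).

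**Figure D4:**
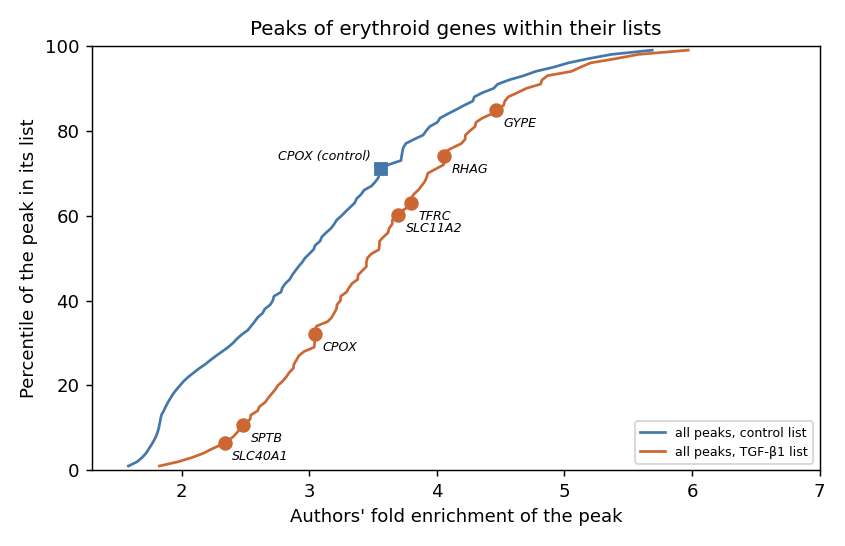
Authors' fold enrichment of each peak assigned to the 51 genes (marks) on the cumulative curve of all peaks of its list (percentile on the vertical axis), control in blue and TGF-β1 in orange. GYPE, at 4.46, is the highest and SLC40A1, at 2.34, the lowest, and 4 of the 7 TGF-β1 marks lie above the list median of 3.46.

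Further genes of the same pathways were counted in the same way. Of 58 related genes of the red cell membrane, of heme and of iron, 8 (13.8%, 6.15% to 25.4%) had a TGF-β1 peak, against 25.3% of all protein-coding genes, and 3 (5.17%, 1.08% to 14.4%) a control peak, against 9.28%. Among iron handling genes, 6 of 24 (25%) were in the TGF-β1 list, a share equal to the background within its interval of 9.77% to 46.7%, and 0 of 24 in the control list, where the interval reaches 14.2% and includes the background. The highest folds were those of NEO1, a co-receptor in hepcidin control (5.07, with 3 peaks), SLC39A8, a metal transporter gene (4.05), and FTMT, the mitochondrial ferritin gene (4.05). Each list had a peak for 2 of 22 other membrane and surface genes. ACHE, which carries the Cartwright antigen, had a TGF-β1 peak of fold 4.13 and a control peak of fold 3.59 with summits 6.57 kb apart, STOM, the stomatin gene, had 2 TGF-β1 peaks (highest fold 2.84), and CD55, the Cromer antigen gene, had a control peak (3.55). Of 12 other heme genes, BLVRA, the biliverdin reductase A gene, was the 1 in the control list (4.38), and 0 were in the TGF-β1 list.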

How the data were processed

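Per the submitters' processing notes, the authors used Bowtie2, the build hg38 and MACS2 2.1.0. The file headers name MACS 2.2.7.1, run with a q-value limit of 0.05 on each ChIP library and its input. The deposited values of each peak are the pileup (a signal, the coverage of extended tags, with the larger library scaled to the smaller), the fold enrichment (a ratio to local background), and a −log10 p-value and −log10 q-value, per the file headers. Tag length was 60 bp (control) and 43 bp (TGF-β1).

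Summits were assigned with Python 3.11.15 to RefSeq genes of chromosomes 1 to 22, X and Y, and ties count for each gene. The assignment was tested on simulated data. Local background was computed from pileup and fold enrichment. Genes were named when they had an assigned peak, when a summit within 100 kb was nearer to another gene, or by the nearest and farthest TGF-β1 summit of a role, and the distances of the rest were added after they were seen. The genes and lists were chosen with earlier results of these data known. Alternatives were the q-value limit, list length, local background, dense bins, distance limits and competing genes. Peak sequences were not analysed here. Promoter windows are from RefSeq. Genes with no window used here were UROS, ANK1, SLC4A1, XK, AHSP, CA2, DMTN, FTH1, SLC25A37, HMOX1, BNIP3L, ACKR1, TFR2, XPO7 and CA1.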

Additional observations from a re-analysis of the deposited data

How the results depend on the processing

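At −log10 q of 5 or more, 0 control genes and 1 TGF-β1 gene (GYPE) were left of the 51. By role this left 1 blood group and surface gene, and 0 membrane skeleton, heme synthesis and iron genes in the TGF-β1 list and 0 heme synthesis genes in the control list. With the TGF-β1 list shortened to 5307 peaks by fold, 2 genes were left, GYPE and RHAG, and the membrane skeleton, heme synthesis and iron genes had 0. Counting summits inside genes, 0 genes had a control and 2 a TGF-β1 summit, SPTB and SLC11A2, and the same counts held within 10 kb. In both cases blood group and surface and heme synthesis genes had 0, and iron genes 1. With a limit of 500 kb, control peaks were assigned to 2 genes, CPOX and CA2, the latter the 1 gene of transport, signalling and maturation, and TGF-β1 peaks to 8, GYPC being added. Where any RefSeq gene could be nearer, 0 genes had a control and 4 a TGF-β1 peak, with 0 blood group and surface genes in the TGF-β1 list and 0 heme synthesis genes in the control list, since a non-coding gene lay nearer to the summits of GYPE, RHAG, TFRC and the control summit of CPOX. Any summit within 100 kb, an alternative added after seeing the data, gave 4 and 19 genes. Leaving out peaks over high local background or in dense bins changed no count. In each setting the share of the 51 genes was below that of all protein-coding genes, but the settings draw on the same peak lists and are not independent. CPOX was the 1 gene with a peak in both lists, and its peaks, 16.7 kb apart, gave 0 overlaps at 1 bp, so that the limit of 50% of the shorter peak could not change this. No paired analysis was possible because each group held 1 ChIP library. Where 0 of 51 genes had a peak, the exact interval reaches 6.98%.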
